A study of Mus musculus with 20 samples.

Results

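The Slc25 genes encode the mitochondrial carrier family. Members were taken as every gene whose symbol begins with Slc25a, less 2 symbols that are not analysed here, and 46 such genes were present in the count table. Of these, 39 passed the filter on low counts, which required more than 0.5 CPM (read counts scaled to a common library total) in at least 4 of the 20 libraries, and they are 39 of the 13795 genes that passed. The 7 that did not pass were Slc25a2, Slc25a18, Slc25a31, Slc25a41, Slc25a43, Slc25a54 and the pseudogene Slc25a5-ps. None of these 7 exceeded 15 counts in any library, and Slc25a41 and Slc25a54 had 0 counts in all 20.

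Total RNA and polysome RNA were sequenced from the livers of 10 male C57BL/6J mice. Each mouse was fed standard chow and had received 3 intraperitoneal injections, of a locked nucleic acid (LNA) oligomer at 3 mg/kg, on alternate days. Death came 2 days after the final injection by the general methods. The general methods give an age of 8 weeks at injection, and the polysome methods an age of 10 weeks with cycloheximide, which stalls ribosomes on mRNA, given by tail vein 5 min before death. For 5 mice (numbers 1, 2, 3, 8 and 9) the LNA was directed at GFP, a sequence that mice lack, and for 5 (numbers 4, 6, 10, 11 and 12) at SNORA73, a box H/ACA small nucleolar RNA encoded in introns of Snhg3. The sample labels spell the latter group Snora37. No untreated mice are among the samples analysed here, and both groups carry an LNA. Total RNA was taken from the liver lysate and polysome RNA from the polysome fractions of the same lysate, so each mouse gave 1 library of each kind, and the replicates are separate mice. Summed counts ran from 24098067 to 42023390 (GFP LNA) and from 20005389 to 29887649 (SNORA73 LNA) in total RNA, and from 17751846 to 33824659 and from 14852951 to 24905687 in polysome RNA. Snora73a had at most 2 counts and Snora73b at most 4 counts in any of these poly(A)-selected libraries, so the target cannot be read from them. Hepatocyte markers were abundant in every library, and the skeletal muscle markers did not pass the filter. Erythroid markers summed to 232 to 790 CPM in total RNA and 363 to 1307 CPM in polysome RNA, with overlap between the LNA groups. Exocrine pancreas markers, of which 1 of 4 passed the filter, summed to 24.8 to 79.3 CPM. In total RNA, mice 9 and 10 correlated least with the other mice of their own groups, with mean r of 0.980 and 0.973.

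Carriers of the Slc25 family sit in the inner membrane of mitochondria and exchange metabolites, nucleotides, cofactors and phosphate between the matrix and the cytosol. They are encoded in the nucleus, made on cytosolic ribosomes and inserted into the membrane by the TIM22 complex with the help of small Tim chaperones. In the liver they serve oxidative phosphorylation, the malate-aspartate shuttle, urea synthesis, gluconeogenesis and the export of citrate for fatty acid synthesis.

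The SNORA73 LNAs listed for the study are shown because they define the treatment. Capitals mark the 10 locked bases, 5 at each end, and lower case the 10 DNA bases between them. After comparing both in mice, the study continued in vivo with the more potent SNORA73-2, although the oligomer is not named separately for the sequenced livers.
SNORA73 LNA 1: AAGTCgtaggaatatGCAGG
SNORA73 LNA 2: GACTCtgagaagtcgTAGGA

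The first question was whether carrier transcripts differed between SNORA73 LNA and GFP LNA livers. None of the 39 members passed a false discovery rate of 0.05 in total RNA or in polysome RNA by edgeR's quasi-likelihood test with Benjamini-Hochberg adjustment over all 13795 genes. By that test 0.0290% of all genes passed in total RNA and 0.0145% in polysome RNA. At an unadjusted p under 0.05 there were 3 members in total RNA, where 8.66% of all genes passed that level, and 6 in polysome RNA, where 13.2% did. Limma-voom called 0 members in either RNA, with all-gene shares of 0.0217% and 0.0145%. DESeq2, which gave an adjusted p for 35 members in total RNA and 32 in polysome RNA, also called 0 of them, while its all-gene shares were larger, at 0.581% and 2.59%. Without mice 9 and 10 edgeR again called 0 members, beside 0.696% and 0.217% of all genes, and with all 20 libraries in 1 fit it called 0 in polysome RNA, beside 2.30% of all genes. Because these are bulk livers, fewer cells of a type and less RNA per cell cannot be told apart.

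The fitted log2 ratios of SNORA73 LNA to GFP LNA ran from −1.54 to 0.43 in total RNA, with a median of −0.067 (15 members above 0 and 24 below), beside a median of 0.0017 over all genes. In polysome RNA they ran from −1.61 to 0.87, with a median of −0.11 (13 above 0 and 26 below), beside −0.011 over all genes. With scaling by library totals alone, the all-gene medians moved to −0.14 and −0.16, and the member medians to −0.20 and −0.26. The 95% interval of 34 members lay within a 2-fold change in either direction in total RNA, and that of 29 members in polysome RNA. For the remaining members the data do not exclude a change of that size.

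**Figure D1:**
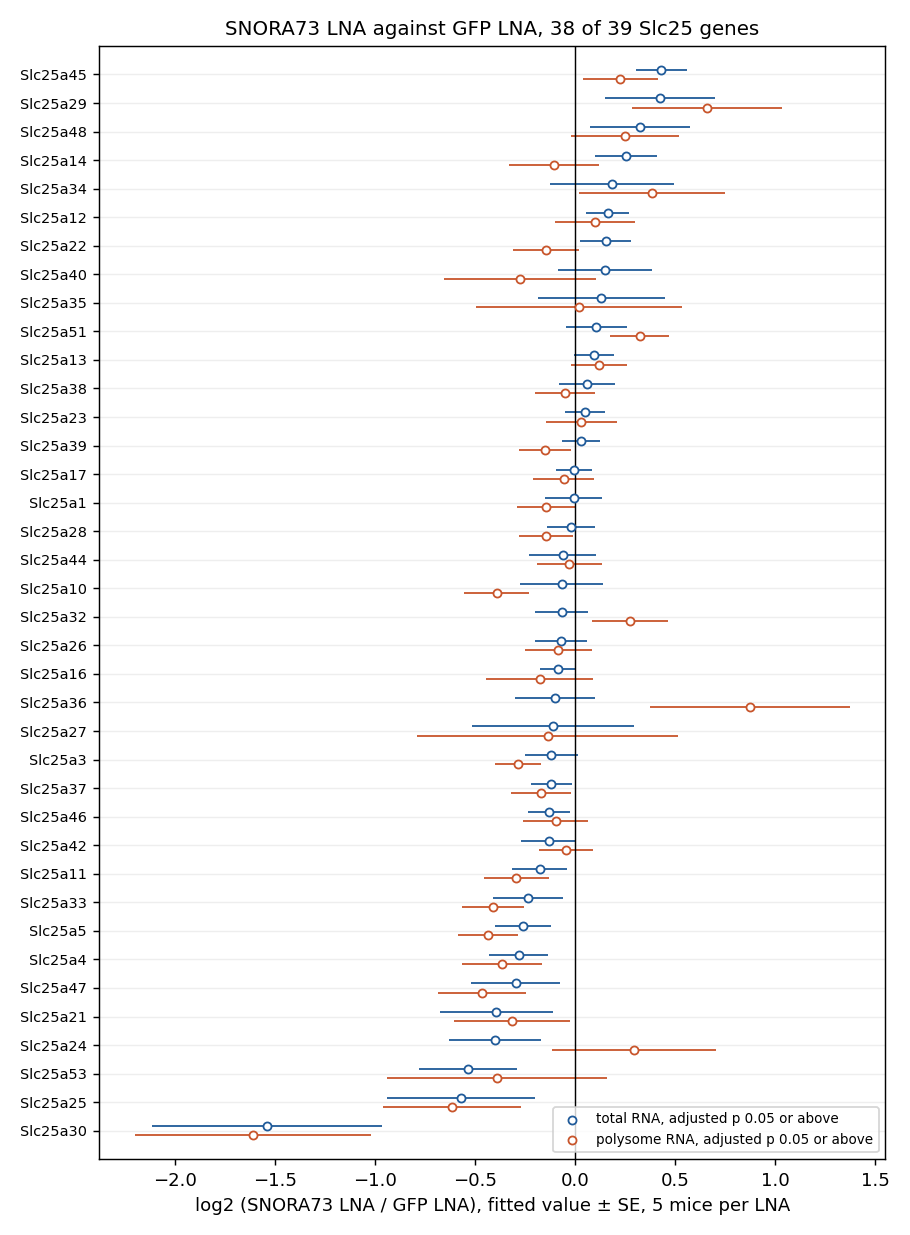
Fitted log2 ratio of SNORA73 LNA to GFP LNA for 38 of the 39 Slc25 genes (x axis), with genes ordered by their value in total RNA (y axis). Blue circles are total RNA and orange circles polysome RNA, bars are ± SE, and all circles are open because every adjusted p was 0.05 or above. Slc25a30 stands lowest, at −1.54 in total and −1.61 in polysome RNA, with the widest bars of total RNA.

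Slc25a30, a carrier close in sequence to the uncoupling proteins, had the lowest ratio in both RNAs. In total RNA its CPM was 131, 47.2, 67.4, 15.4 and 8.38 in GFP LNA mice 1, 2, 3, 8 and 9, and 24.9, 12.3, 22.1, 17.3 and 16.8 in SNORA73 LNA mice 4, 6, 10, 11 and 12. GFP LNA mice 1, 2 and 3 lay above every SNORA73 LNA mouse, whereas mice 8 and 9 lay within or below that group. The log2 ratio was −1.54 ± 0.57 (SE, 95% interval −2.79 to −0.30, adjusted p = 0.478). In polysome RNA the CPM was 88.2, 31.7, 42.5, 9.898 and 4.51 with GFP LNA and 16.6, 9.77, 15.6, 8.94 and 7.17 with SNORA73 LNA, again with mice 1, 2 and 3 highest, and the log2 ratio was −1.61 ± 0.59 (SE, adjusted p = 0.284). Leaving out mouse 1 alone gave −0.91 in total and −0.95 in polysome RNA, and leaving out mice 9 and 10 gave −1.88 and −2.02, with adjusted p of 0.14 for each RNA. The spread of Slc25a30 between GFP LNA mice, an SD of 1.58 on the log2 CPM scale in total RNA, exceeded that of 99.9% of the genes tested, whose median SD was 0.19.

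Slc25a25, a calcium-regulated ATP-Mg/phosphate carrier, had the next lowest ratio in both RNAs. Its CPM in total RNA was 125, 45.6, 121, 116 and 34.4 with GFP LNA and 43.4, 95.2, 39.5, 73.7 and 45.96 with SNORA73 LNA. GFP LNA mice 1, 3 and 8 lay above all SNORA73 LNA mice, mouse 2 lay within that group and mouse 9 below it. In polysome RNA the same mice were high, with 111, 43.1, 101.5, 118 and 30.96 CPM with GFP LNA and 37.4, 70.9, 39.3, 70.01 and 48.1 CPM with SNORA73 LNA. The log2 ratios were −0.57 ± 0.37 and −0.62 ± 0.34 (SE), with adjusted p of 0.735 and 0.469. The log2 SD between GFP LNA mice was 0.88 in total RNA, above 98.8% of the genes tested.

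Slc25a47, a carrier found mainly in liver, gave 132, 142, 133, 166 and 284 CPM in total RNA with GFP LNA and 118, 200.0, 127, 135 and 119 CPM with SNORA73 LNA. Mouse 9 was far above the other GFP LNA mice and mouse 6 far above the other SNORA73 LNA mice. In polysome RNA mouse 9 was again the highest, with 135, 185, 155, 226 and 345 CPM with GFP LNA and 126, 153, 177, 152 and 151 CPM with SNORA73 LNA. The log2 ratios were −0.30 ± 0.22 in total RNA and −0.47 ± 0.22 in polysome RNA (SE, adjusted p = 0.777 and 0.388).

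Slc25a53, a carrier whose substrate is little studied, had the lowest ratio in total RNA after Slc25a30 and Slc25a25. It was scarce, at 0.839, 1.19, 1.03, 1.07 and 0.798 CPM with GFP LNA and 0.644, 0.5598, 0.506, 0.665 and 1.01 CPM with SNORA73 LNA, and mouse 12 lay within the range of the GFP LNA mice. Its log2 ratio was −0.54 ± 0.25 (SE, adjusted p = 0.574).

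At the other end of total RNA stood Slc25a45, another carrier of less settled substrate. Its CPM was 13.6, 10.5, 13.8, 15.3 and 11.5 with GFP LNA and 15.3, 15.7, 21.96, 16.5 and 17.9 with SNORA73 LNA. The groups did not overlap, although the highest GFP LNA mouse and the lowest SNORA73 LNA mouse were both near 15.3 CPM. Slc25a45 was the 1 member of 39 without overlap in total RNA, where 1.85% of all genes had none, and its log2 ratio of 0.43 ± 0.13 (SE) had an adjusted p of 0.366, the smallest of the family in total RNA. In polysome RNA its ranges were 9.302 to 13.4 CPM with GFP LNA and 10.7 to 19.7 CPM with SNORA73 LNA, which overlapped.

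Slc25a29, a carrier of basic amino acids, and Slc25a48, a carrier tied to choline, followed in total RNA. Slc25a29 had 0.4497, 0.5696, 0.618, 0.657 and 0.544 CPM with GFP LNA and 0.376, 0.9797, 0.8096, 0.665 and 0.938 CPM with SNORA73 LNA, with mouse 4 below all GFP LNA mice and the other 4 above them. In total RNA its log2 ratio was 0.42 ± 0.27 and in polysome RNA it was 0.66 ± 0.38 (SE, adjusted p = 0.734 and 0.481). Slc25a48 had 10.8, 11.7, 9.44, 6.53 and 7.18 CPM with GFP LNA and 10.7, 12.5, 5.26, 13.7 and 15.2 CPM with SNORA73 LNA, with mouse 10 the lowest of all, and a log2 ratio of 0.32 ± 0.25 (SE, adjusted p = 0.788).

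In polysome RNA the highest ratios were those of Slc25a36, Slc25a29 and Slc25a34. Slc25a36, a pyrimidine nucleotide carrier, had 0.583, 0.08901, 1.104, 0.365 and 0.455 CPM with GFP LNA and 1.22, 1.06, 0.759, 0.646 and 1.29 CPM with SNORA73 LNA, and GFP LNA mouse 3 lay within the SNORA73 LNA range. These are low levels, with as few as 2 counts in a library. Its log2 ratio was 0.87 ± 0.50 in polysome RNA (SE, adjusted p = 0.481), beside −0.10 ± 0.20 in total RNA. Slc25a34, of less settled substrate, had 3.05, 3.38, 1.13, 1.82 and 0.994 CPM with GFP LNA and 2.26, 2.32, 1.696, 3.61 and 3.73 CPM with SNORA73 LNA, with a log2 ratio of 0.38 ± 0.36 (SE, adjusted p = 0.698).

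Slc25a5 and Slc25a3 bring ADP and phosphate to the ATP synthase. Slc25a5, the ADP/ATP carrier of liver, had 374, 408, 349, 353 and 349.6 CPM in total RNA with GFP LNA and 294, 380.1, 257, 240.1 and 364 CPM with SNORA73 LNA. In polysome RNA the CPM was 445, 411, 362, 439.8 and 407 with GFP LNA and 270.1, 387, 262, 247 and 364 with SNORA73 LNA. SNORA73 LNA mice 4, 10 and 11 lay below all GFP LNA mice in both RNAs, and mice 6 and 12 lay within their range. The log2 ratios were −0.26 ± 0.14 and −0.44 ± 0.15 (SE, adjusted p = 0.652 and 0.259). Slc25a5 has processed copies in the genome, so reads may have been shared with them by the pseudoalignment. The listed pseudogene Slc25a5-ps had at most 6 counts in any library.

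Slc25a3, the phosphate carrier, was the 1 member without overlap between the LNA groups in polysome RNA, where 3.18% of all genes had none. Its polysome CPM was 315, 316, 315, 311 and 303 with GFP LNA and 264, 253, 225, 245 and 298 with SNORA73 LNA. The 5 GFP LNA mice lay close together, and all SNORA73 LNA mice were below them. The log2 ratio was −0.28 ± 0.12 (SE, 95% interval −0.53 to −0.036, adjusted p = 0.322). In total RNA the groups overlapped, with 219.7 to 274 CPM and 175 to 286 CPM and a log2 ratio of −0.12 ± 0.13 (SE).

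**Figure D2:**
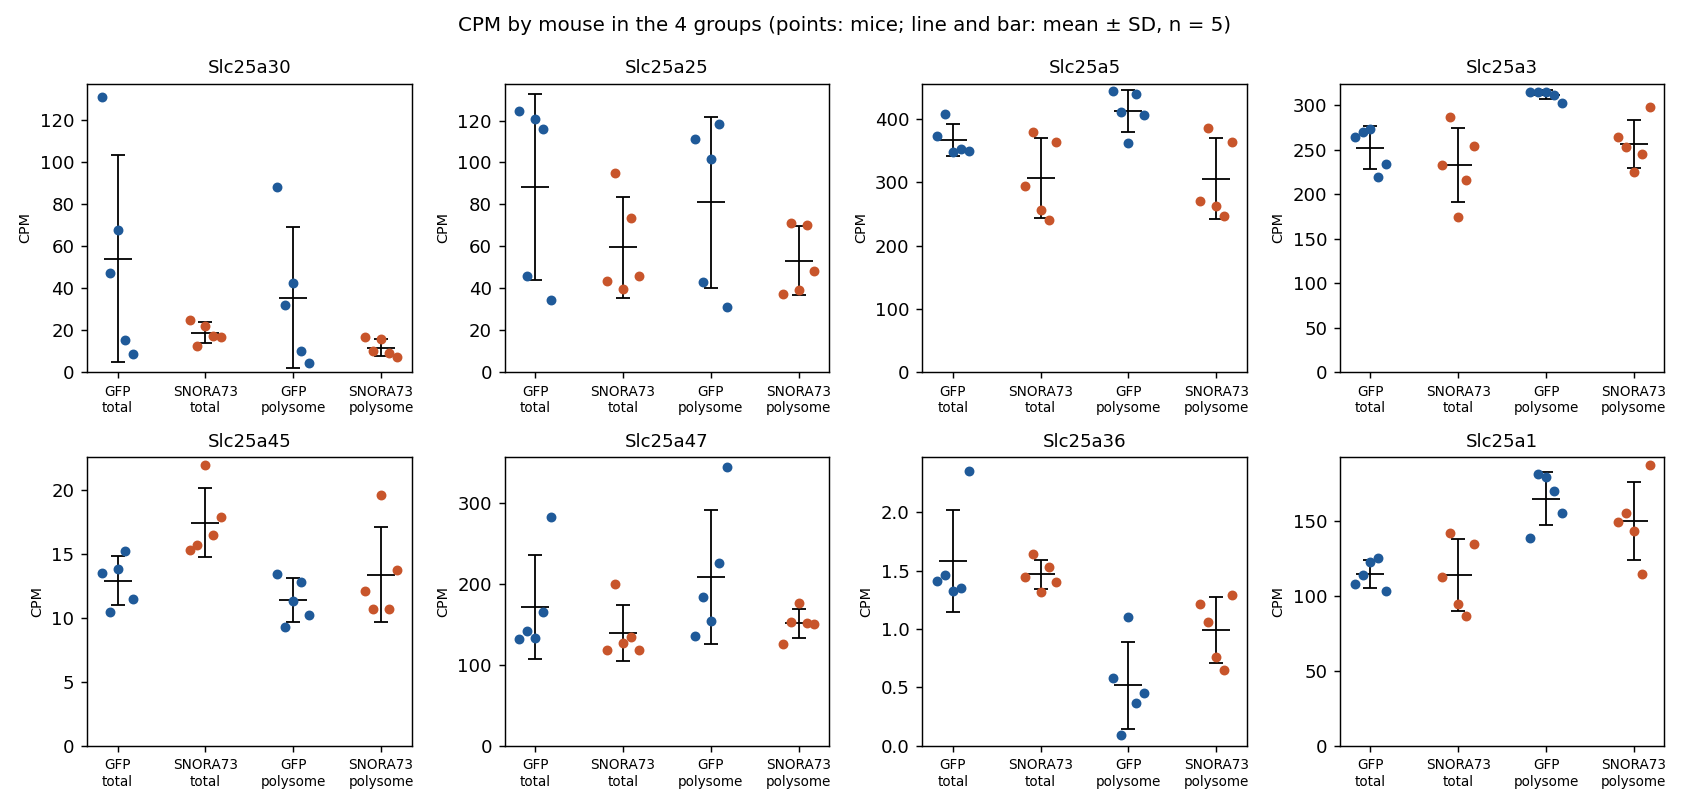
CPM (y axis, from 0) of 8 Slc25 genes in total and polysome RNA of GFP LNA mice (blue) and SNORA73 LNA mice (orange). Points are mice, horizontal lines are means and bars are ± SD of 5 mice. The polysome points of Slc25a3 do not overlap (303 to 316 CPM against 225 to 298 CPM), and those of Slc25a30 spread from 4.51 to 88.2 CPM with GFP LNA.

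By transport role, 0 members of any group passed in either RNA, where 0.0290% of all genes passed in total and 0.0145% in polysome RNA. With shares this small, 0 in a group says little about its role. The 6 tested carriers of ADP, ATP, ATP-Mg and phosphate had a median log2 ratio of −0.27 in total RNA and −0.33 in polysome RNA. The 9 carriers of cofactors and other nucleotides had medians of −0.072 and −0.047, and the 6 tested amino acid carriers 0.12 and 0.035. For the 7 carriers of di-, tri- and ketocarboxylates, including the uncoupling protein-like Slc25a14, Slc25a27 and Slc25a30, the medians were −0.11 and −0.29. All 7 had polysome values below 0, with Slc25a14 nearest to 0 at −0.11. The 4 carriers of iron and glutathione had medians of 0.0029 and −0.16, and the 7 tested carriers of less settled substrate 0.13 and 0.020.

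Values of named members of these groups follow, none of which passed. Slc25a1, the citrate carrier, had 115 ± 9.44 CPM with GFP LNA and 114 ± 24.1 CPM with SNORA73 LNA in total RNA (mean ± SD, n = 5 each), a log2 ratio of −0.0086 ± 0.14 (SE). Slc25a10, the dicarboxylate carrier, had 53.7, 53.8, 44.4, 40.1 and 38.5 CPM with GFP LNA and 44.5, 62.00, 23.5, 44.04 and 46.7 CPM with SNORA73 LNA, with mouse 10 the lowest and mouse 6 the highest. In total RNA its log2 ratio was −0.067 ± 0.21 and in polysome RNA it was −0.39 ± 0.16 (SE, adjusted p = 0.33 for the latter). Slc25a13, the liver aspartate/glutamate carrier of the malate-aspartate shuttle, had log2 ratios of 0.10 ± 0.10 and 0.12 ± 0.14. Slc25a22, a glutamate carrier, had 0.15 ± 0.13 in total RNA and −0.15 ± 0.16 in polysome RNA.

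Of the 6 members at an unadjusted p under 0.05 in polysome RNA, Slc25a30, Slc25a5, Slc25a33, Slc25a10 and Slc25a3 had ratios below 0 and Slc25a51, a carrier of NAD+, had a ratio above 0, at 0.32 ± 0.15 (SE, adjusted p = 0.372). Its polysome CPM was 21.01, 26.5, 18.1, 22.2 and 29.9 with GFP LNA and 27.3, 35.6, 31.3, 28.4 and 25.2 with SNORA73 LNA, and the ranges overlapped. Slc25a33, a pyrimidine nucleotide carrier, had 39.5, 25.01, 32.2, 26.9 and 25.1 CPM and 26.7, 21.3, 17.9, 23.4 and 23.1 CPM, with GFP LNA mouse 1 the highest of all and a log2 ratio of −0.41 ± 0.16 (SE, adjusted p = 0.297).

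Malat1, a noncoding RNA retained in the nucleus, ran from 87.4 to 145 CPM in polysome RNA of GFP LNA mice and from 216 to 1383 CPM in that of SNORA73 LNA mice, ranges that did not overlap, although its log2 ratio of 2.28 ± 0.46 did not pass (SE, adjusted p = 0.0887). Neat1, the other nuclear RNA listed, overlapped there, at 20.4 to 41.7 CPM and 18.5 to 38.2 CPM (log2 ratio −0.12 ± 0.23, SE, adjusted p = 0.857). In total RNA the sums of both overlapped (464 to 649 and 428 to 1087 CPM). The summed sinusoidal endothelial markers (4 of 4 tested) were apart in polysome RNA, at 58.0 to 69.3 CPM and 72.4 to 82.7 CPM, and overlapped in total RNA, at 65.8 to 83.1 CPM and 76.4 to 88.5 CPM. Of these 4, Stab2 alone passed in total RNA, at a log2 ratio of 1.06 ± 0.15 (SE, adjusted p = 0.0484), beside 0.0290% of all genes. Kdr, Clec4g and Lyve1 did not pass there, at 0.26, 0.18 and −0.11. In polysome RNA 0 passed, beside 0.0145% of all genes, and Stab2 had an adjusted p of 0.0891. The part of Malat1, Neat1 and these markers in the polysome values of the carriers was not tested.

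The second question was how the carriers divided between polysome and total RNA. Loading is given here as the log2 ratio of polysome to total RNA after scaling, so that a typical gene of the library lies near 0. Mitochondrially encoded genes took 11.2% to 15.4% of counts in total RNA and 1.76% to 3.89% in polysome RNA. In GFP LNA livers 10 of 39 members (25.6%) were higher in polysome RNA and 10 (25.6%) lower, against 21.8% and 21.0% of all genes tested. In SNORA73 LNA livers 6 members (15.4%) were higher and 8 (20.5%) lower, against 19.7% and 18.2% of all genes. These shares were near those of all genes. All 14 members called in SNORA73 LNA livers were also called, in the same direction, in GFP LNA livers, which is 60% of the higher and 80% of the lower GFP LNA calls. Over all genes tested, 81.9% of the higher and 85.0% of the lower SNORA73 LNA calls were shared, which is 74.0% and 73.8% of the GFP LNA calls. With the mouse as a block, 16 members were higher and 12 lower with GFP LNA, and 10 were higher and 11 lower with SNORA73 LNA. The all-gene shares also rose under the block, to 28.9% higher and 27.2% lower with GFP LNA and to 26.0% and 25.1% with SNORA73 LNA. The members that gained a call with GFP LNA were Slc25a5, Slc25a10, Slc25a22, Slc25a44, Slc25a47 and Slc25a48 (higher) and Slc25a21 and Slc25a30 (lower). With SNORA73 LNA they were Slc25a11, Slc25a33, Slc25a34 and Slc25a44 (higher) and Slc25a30, Slc25a45 and Slc25a51 (lower). Calls given below are without the block unless it is named. Without mouse 2, 3 or 9 the higher members with GFP LNA numbered 5, and without mouse 8 they numbered 6. With mitochondrially encoded genes left out of the fit they numbered 7, and Slc25a3, Slc25a11 and Slc25a33 lost the call. The same fit called 2838 of 13769 genes higher, beside 3011 of 13795 in the main fit.

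The difference in loading between the LNA groups, tested as an interaction, passed the false discovery rate for 0 of 39 members by edgeR. At an unadjusted p under 0.05 there were 0 members, beside 2.91% of all genes, and limma-voom and DESeq2 made 0 calls. The share of all genes that passed the false discovery rate was 0.00725% by edgeR and 0.0509% by DESeq2. In the edgeR fit without the block, the smallest unadjusted p belonged to Slc25a36 and Slc25a24. Their differences were 0.96 ± 0.51 and 0.69 ± 0.42 on the log2 scale (SE, adjusted p = 1 for both). With the mouse as a block edgeR again called 0 members, beside 1 of 13795 genes. Slc25a22 and Slc25a32 then had an unadjusted p under 0.05, at −0.32 ± 0.13 and 0.35 ± 0.15 (SE, adjusted p = 0.571 and 0.61). The 6 members called in one LNA group but not in the other (Slc25a3, Slc25a11, Slc25a14, Slc25a33, Slc25a36 and Slc25a51) are therefore not shown to differ between them.

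**Figure D3:**
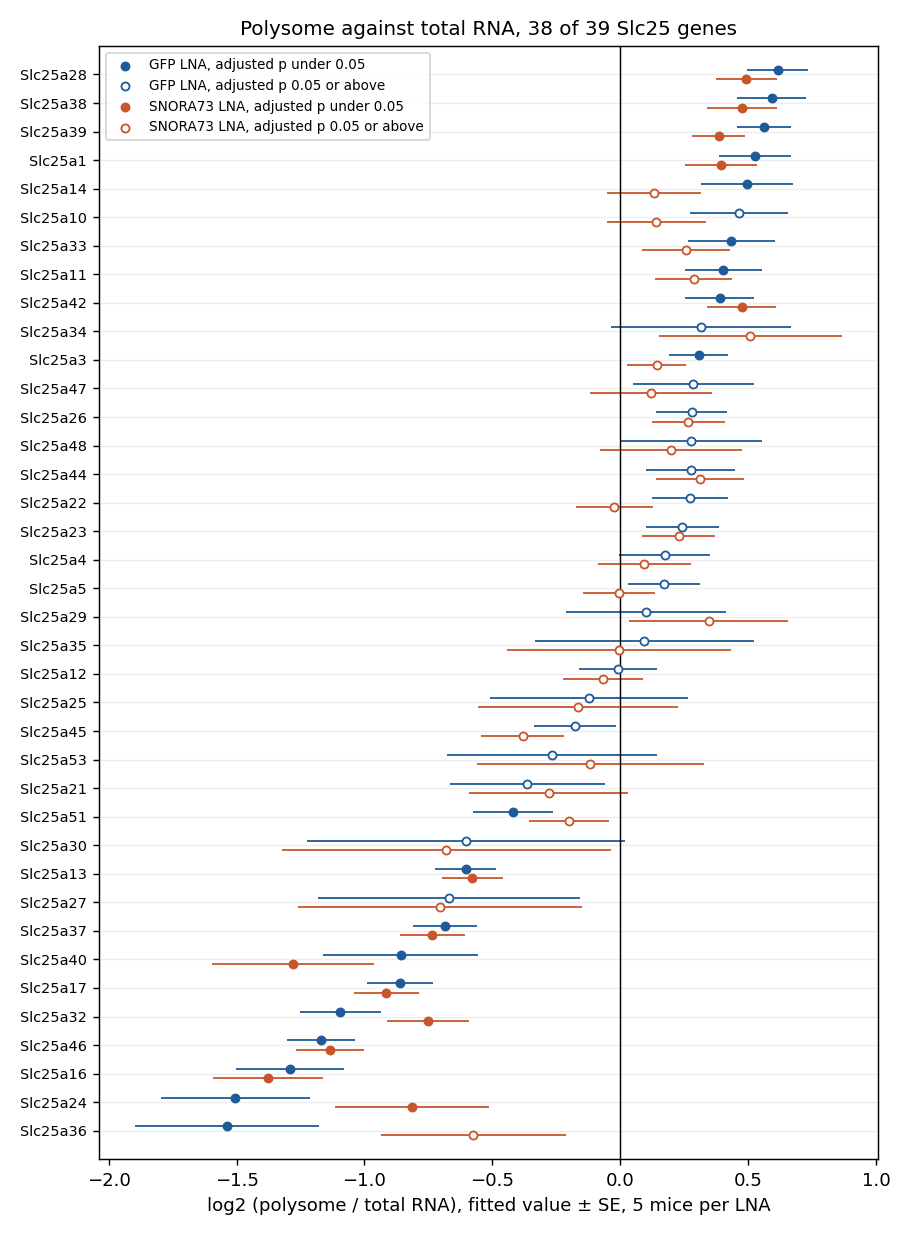
Fitted log2 ratio of polysome to total RNA for 38 of the 39 Slc25 genes (x axis), ordered by their value with GFP LNA (y axis). Blue is GFP LNA and orange SNORA73 LNA, bars are ± SE, and filled circles have an adjusted p under 0.05. With GFP LNA values run from −1.54 for Slc25a36 to 0.62 for Slc25a28.

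The highest loading in GFP LNA livers belonged to Slc25a28, Slc25a38, Slc25a39 and Slc25a1. Slc25a28, a mitoferrin that brings iron into the matrix, had polysome to total CPM ratios of 1.47, 1.45, 1.71, 1.54 and 1.49 in GFP LNA mice 1, 2, 3, 8 and 9, and of 1.46, 1.197, 1.77, 1.16 and 1.599 in SNORA73 LNA mice 4, 6, 10, 11 and 12. All 10 mice were above 1. The log2 ratios were 0.62 ± 0.12 with GFP LNA (SE, adjusted p = 0.000282) and 0.49 ± 0.12 with SNORA73 LNA (SE, adjusted p = 0.00258).

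Slc25a38, which carries glycine for haem synthesis, had ratios of 1.47, 1.29, 1.32, 1.58 and 2.11 with GFP LNA and 1.39, 1.26, 1.42, 1.29 and 1.63 with SNORA73 LNA, all above 1 and highest in mouse 9. Its log2 ratios were 0.59 ± 0.13 and 0.48 ± 0.14 (SE, adjusted p = 0.00134 and 0.00861). Slc25a39, a glutathione carrier, had ratios of 1.24 to 1.77 and 1.23 to 1.39, and log2 ratios of 0.56 ± 0.10 and 0.38 ± 0.10 (SE, adjusted p = 0.000214 and 0.00598). For Slc25a1 the ratios were 1.29, 1.595, 1.47, 1.35 and 1.502 with GFP LNA and 1.33, 1.097, 1.51, 1.32 and 1.39 with SNORA73 LNA, again above 1 in 10 of 10 mice. The log2 ratios of Slc25a1 were 0.53 ± 0.14 and 0.39 ± 0.14 (SE, adjusted p = 0.00498 and 0.0326), and the SNORA73 LNA call was lost without mouse 2, 3, 4, 10 or 12.

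The lowest loading belonged to Slc25a36, Slc25a24, Slc25a16 and Slc25a46. Slc25a16, a carrier tied to coenzyme A, had ratios of 0.441, 0.427, 0.422, 0.322 and 0.431 with GFP LNA and 0.483, 0.725, 0.326, 0.227 and 0.204 with SNORA73 LNA. No mouse reached 1, and SNORA73 LNA mice spread more widely than GFP LNA mice. The log2 ratios were −1.29 ± 0.21 and −1.38 ± 0.21 (SE, adjusted p = 5.59e-05 and 4.07e-05). Slc25a46, an outer membrane member tied to mitochondrial shape, had ratios of 0.514, 0.454, 0.454, 0.3702 and 0.437 and 0.437, 0.695, 0.484, 0.308 and 0.405, all below 1. Its log2 ratios of −1.17 ± 0.13 and −1.13 ± 0.13 (SE) had the smallest adjusted p of the family, 7.76e-07 and 1.89e-06.

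Slc25a36 and Slc25a24 were low in level and varied more. For Slc25a36 the ratios were 0.414, 0.0609, 0.831, 0.269 and 0.193 with GFP LNA and 0.839, 0.647, 0.577, 0.421 and 0.917 with SNORA73 LNA, all below 1 but overlapping between the groups. Its log2 ratio reached −1.54 ± 0.36 in the former (SE, adjusted p = 0.00178) and −0.57 ± 0.36 in the latter (SE, adjusted p = 0.223). Slc25a24, an ATP-Mg/phosphate carrier, had ratios of 0.373, 0.244, 0.249, 0.615 and 0.329 and 0.565, 0.922, 0.243, 0.5895 and 0.773, with log2 ratios of −1.50 ± 0.29 and −0.81 ± 0.30 (SE, adjusted p = 0.000319 and 0.0376). The SNORA73 LNA call for Slc25a24 was lost without mouse 1, 4, 10 or 11, and the value was −0.56 without mouse 10.

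Several carriers that share a substrate are set side by side here. The pairs were chosen after their values were seen, with the higher gene first in most, so the tallies over mice describe that choice. In the iron pair, Slc25a28 was higher in polysome RNA while Slc25a37, the other mitoferrin, was lower in both LNA groups, at −0.68 ± 0.13 and −0.73 ± 0.13 (SE, adjusted p = 0.000182 and 0.000123). In the glutathione pair, Slc25a39 was higher and Slc25a40 lower, at −0.86 ± 0.30 and −1.28 ± 0.32 (SE, adjusted p = 0.0273 and 0.0031). Slc25a42, the coenzyme A carrier, was higher, at 0.39 ± 0.13 and 0.47 ± 0.14 (SE, adjusted p = 0.0241 and 0.00871), and Slc25a16 lower. In each of these pairs the first exceeded the second in 10 of 10 mice.

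Among pyrimidine nucleotide carriers, Slc25a33 exceeded Slc25a36 in 10 of 10 mice, with Slc25a33 at 0.43 ± 0.17 and 0.26 ± 0.17 (SE), of which the GFP LNA value passed (adjusted p = 0.044). Of the aspartate/glutamate carriers, Slc25a13 was lower in both groups, at −0.60 ± 0.12 and −0.58 ± 0.12 (SE, adjusted p = 0.000388 and 0.000671), while Slc25a12 was not called, at −0.0086 and −0.068. The ratio of Slc25a12 exceeded that of Slc25a13 in 9 of 10 mice. The ADP/ATP carriers Slc25a4 and Slc25a5 lay near each other, at 0.17 and 0.17 with GFP LNA, neither called without the block, and Slc25a4 was the higher in 6 of 10 mice.

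**Figure D4:**
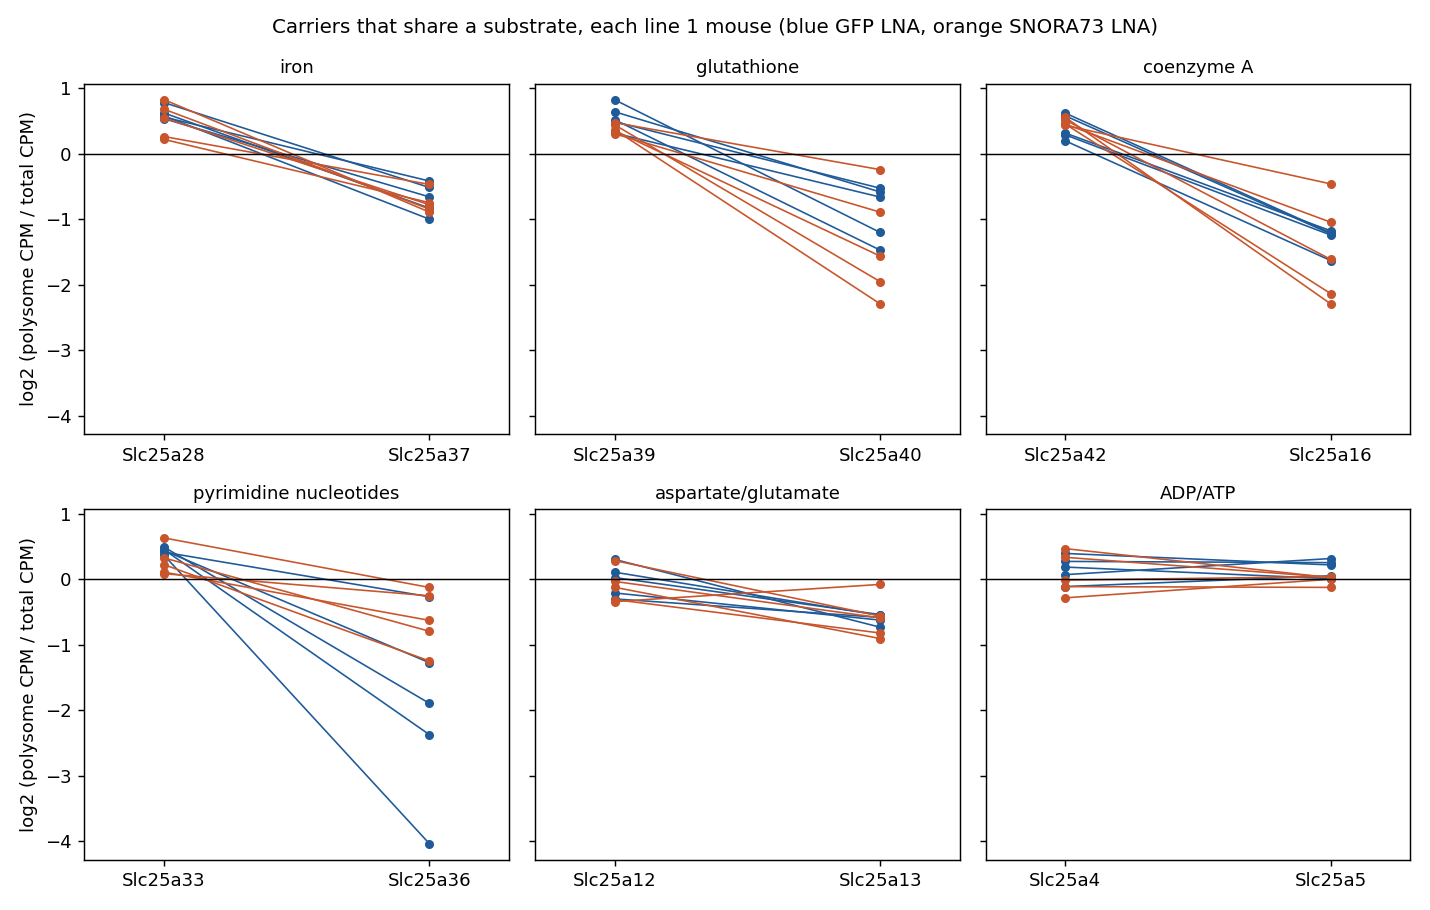
Log2 ratio of polysome to total CPM (y axis) for 6 pairs of carriers that share a substrate, 1 pair a panel, with each line joining the 2 genes in 1 mouse (blue GFP LNA, orange SNORA73 LNA). In the iron, glutathione, coenzyme A and pyrimidine panels all 10 lines fall from left to right, and in the ADP/ATP panel they do not.

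Among other cofactor carriers, Slc25a32, a folate and FAD carrier, was lower in both, at −1.09 ± 0.16 and −0.75 ± 0.16 (SE, adjusted p = 1.58e-05 and 0.000909). Slc25a17, the family's peroxisomal carrier, was also lower, at −0.86 ± 0.13 and −0.91 ± 0.13 (SE, adjusted p = 1.84e-05 and 1.32e-05). Slc25a51 was lower with GFP LNA, at −0.42 ± 0.16 (SE, adjusted p = 0.0341), and Slc25a26, which carries S-adenosylmethionine, was not called, at 0.28 and 0.27.

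Of 7 carboxylate carriers, 3 were higher with GFP LNA (Slc25a1, Slc25a11 and Slc25a14) and 0 lower, beside 21.8% and 21.0% of all genes, and with SNORA73 LNA Slc25a1 alone was called, beside 19.7% higher and 18.2% lower. With the block Slc25a30 was also lower in both LNA groups, and Slc25a21 was lower with GFP LNA, at −0.38 ± 0.13 (SE, adjusted p = 0.0242). Slc25a11, the oxoglutarate/malate carrier, stood at 0.40 ± 0.15 with GFP LNA (SE, adjusted p = 0.0357) and 0.29 ± 0.15 with SNORA73 LNA. Slc25a10 stood at 0.46 ± 0.19 with GFP LNA, just outside the threshold (adjusted p = 0.057) but inside it with the block (adjusted p = 0.00256), and at 0.14 ± 0.19 with SNORA73 LNA. The amino acid carriers gave 1 higher (Slc25a38) and 1 lower (Slc25a13) of 6 in each LNA group. Slc25a22 was not called, at 0.27 and −0.024, and neither was Slc25a44, a branched-chain amino acid carrier, at 0.27 and 0.31. With the block Slc25a44 was higher in both groups, at 0.29 ± 0.08 and 0.31 ± 0.08 (SE, adjusted p = 0.00648 and 0.00513), and Slc25a22 with GFP LNA, at 0.28 ± 0.093 (SE, adjusted p = 0.0195).

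In the adenine nucleotide and phosphate group, Slc25a3 was higher with GFP LNA, at 0.31 ± 0.12 (SE, adjusted p = 0.0375), and not called with SNORA73 LNA, at 0.14 ± 0.12. Its call with GFP LNA was lost without mouse 1, 2, 3, 4, 8 or 9. Slc25a23, an ATP-Mg carrier like Slc25a24, was not called, at 0.24 and 0.23. Slc25a25 was not called either, at −0.12 and −0.16, and Slc25a47 stood at 0.29 and 0.12, of which the GFP LNA value passed with the block (adjusted p = 0.0377). The ratio of Slc25a30 was below 1 in 10 of 10 mice, from 0.538 to 0.675 with GFP LNA and from 0.425 to 0.796 with SNORA73 LNA, although its fitted values of −0.60 ± 0.62 and −0.68 ± 0.64 (SE) were not called without the mouse as a block. With the block Slc25a30 was lower in both groups, at −0.66 ± 0.11 and −0.71 ± 0.11 (SE, adjusted p = 0.000119 and 0.000109).

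Under every alternative test, scaling, filter and set of mice that tested them (the minimum log2 change aside), Slc25a28, Slc25a38 and Slc25a39 kept their higher call, and Slc25a13, Slc25a16, Slc25a17, Slc25a32, Slc25a37 and Slc25a46 their lower call, in both LNA groups. Malat1 and Neat1, which mark nuclear RNA, were lower in polysome than in total RNA with GFP LNA, with log2 ratios of −2.11 and −1.27. With SNORA73 LNA the ratios were −0.44 and −0.71, of which Neat1 passed. Of 5 erythroid markers tested, 4 were higher in polysome RNA with GFP LNA and 0 with SNORA73 LNA, beside 21.8% and 19.7% of all genes. The part of the nuclear RNAs and of erythroid cells in the loading of the carriers was not tested.

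Loading also moved with the span of the gene, the distance from the start to the end of its RefSeq annotation on GRCm38.p6. The Spearman correlation of span with loading across the 39 members came to −0.48 with GFP LNA and −0.47 with SNORA73 LNA, beside −0.33 and −0.28 across the 12909 genes tested that had a position. The genes of a group share libraries, and these values are descriptions. The 10 higher members with GFP LNA had a median span of 12.7 kb and the 10 lower members one of 33.9 kb, beside 11.1 kb and 37.6 kb for all genes called higher and lower. Span differed within the iron pair (11.2 kb for Slc25a28 and 43.7 kb for Slc25a37) and within the glutathione pair (5.71 kb for Slc25a39 and 32.1 kb for Slc25a40), but little within the coenzyme A pair (27.9 kb for Slc25a42 and 25.9 kb for Slc25a16). The part of span in the loading was not tested.

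**Figure D5:**
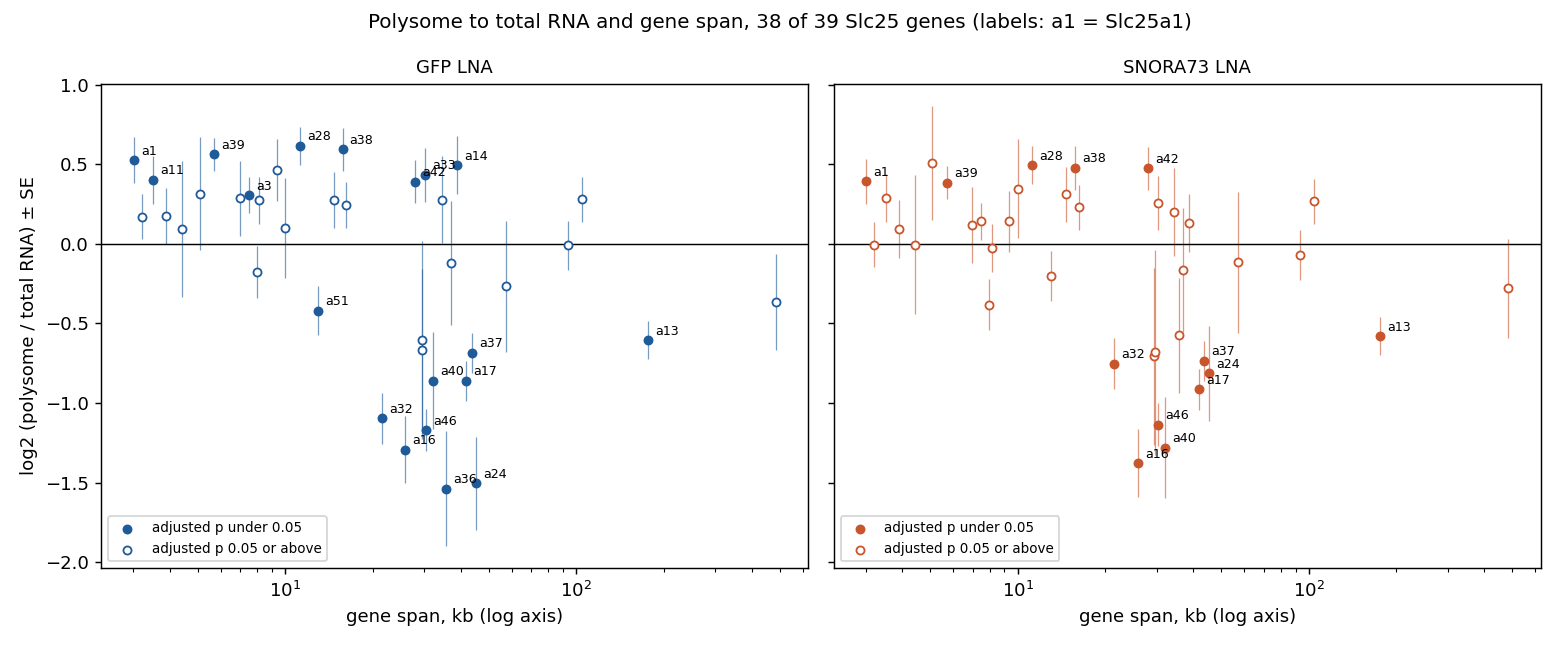
Log2 ratio of polysome to total RNA (y axis, ± SE) against gene span in kb (x axis, log scale) for 38 of the 39 Slc25 genes, with GFP LNA on the left and SNORA73 LNA on the right. Filled circles have an adjusted p under 0.05 and carry the gene's name. With GFP LNA, filled circles below 0 lie at spans of 12.995 to 176 kb and those above 0 at spans of 3.01 to 38.9 kb, which overlap.

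Promoter sequence was available for 30 of the 39 members, as the 250 bases before and 50 bases after each annotated start in RefSeq on GRCm38.p6. The cyclic AMP response element, TGACGTCA, was present in 2 members (6.67%), beside 2.03% of all 27025 genes with a promoter and 3.40% of the 10161 of them that were tested here. The 2 were Slc25a25 and Slc25a36, which stood near the low and at the high end of the LNA comparison in polysome RNA. The E-box CACGTG, read on both strands like every motif here, was present in 5 members (Slc25a1, Slc25a13, Slc25a14, Slc25a33 and Slc25a36), 16.7% beside 11.5% of tested genes. CCAAT was found in 63.3% of members and 43.0% of tested genes, GGGCGG in 86.7% and 65.4%, and TATAAA in 3.33% (Slc25a21) and 9.64%. A gene with several annotated starts was counted if any of its windows held the motif.

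The stretches around the motif are shown for these 2 genes and for Slc25a30, the member with the lowest ratio, whose window held CCAAT but neither TGACGTCA nor CACGTG. Each reads 5′ to 3′ on the minus strand, ends before the annotated start site, and has the motif in capitals. They lie at chr2:32424179-32424246 (150 to 143 bases before 1 of 3 annotated starts of Slc25a25), chr9:97111165-97111232 (161 to 154 bases before the start of Slc25a36) and chr14:75787055-75787119 (52 to 48 bases before the start of Slc25a30). The lower-case part of the Slc25a36 stretch also holds an E-box.
Slc25a25: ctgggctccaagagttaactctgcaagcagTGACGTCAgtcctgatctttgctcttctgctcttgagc
Slc25a36: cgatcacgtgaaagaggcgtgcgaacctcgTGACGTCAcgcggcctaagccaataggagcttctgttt
Slc25a30: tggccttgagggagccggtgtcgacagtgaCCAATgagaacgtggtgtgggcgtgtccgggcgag

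Genes that work with the carriers were counted in the same way. Of 13 genes of the import route of carriers, 0 passed between the LNA groups in either RNA, beside 0.0290% of all genes in total and 0.0145% in polysome RNA. In loading, 8 were higher and 2 lower with GFP LNA, and 7 were higher and 2 lower with SNORA73 LNA, beside all-gene shares of 21.8% and 21.0% and of 19.7% and 18.2%. The highest was Timm13, a small Tim chaperone, at log2 ratios of 1.66 and 1.40, followed with GFP LNA by Timm10b at 1.28 and Timm10 at 1.21. Timm22, the channel that inserts carriers, was at 0.99 and 0.95. The lower pair were Timm29, a TIM22 subunit, at −0.35 and −0.40, and Tomm70a, the receptor of the outer membrane for carriers, at −0.32 and −0.33.

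Of the family members whose symbols do not begin with Slc25a, Mtch1 and Mtch2 were higher in polysome RNA in both LNA groups, at 0.77 and 0.66 for Mtch1 and 0.39 and 0.31 for Mtch2, and Ucp2 was not called, at 0.59 and 0.0050. None of these 3 passed between the LNA groups, where 0.0290% of all genes did in total RNA and 0.0145% in polysome RNA. Of 15 tested inner membrane transporters of other families, 5 were higher and 4 lower in loading with GFP LNA. With SNORA73 LNA 4 were higher and 3 lower, and the all-gene shares of loading are those given above for each LNA group. Smdt1, a subunit of the calcium uniporter, had the highest value, 1.42 with GFP LNA. Of the 3 outer membrane channels, Vdac1 was lower in both groups, at −0.35 and −0.47, and the others were not called.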

How the data were processed

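Reads (100 bp, paired, reversely stranded, from poly(A)-selected RNA) were trimmed by the authors with fastp, freed of rRNA reads with bowtie and quantified with kallisto against the Ensembl mouse transcriptome on GRCm38, with sums per gene made by tximport. The authors deposited estimated counts, of which 14.3% were not whole, and they were rounded here. Symbols were found for 51903 of 53028 identifiers, and those without one took at most 2.99% of counts in a library.

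The 2 LNA groups were compared with edgeR 4.0.16 (R 4.3.3), TMM scaling, quasi-likelihood tests and Benjamini-Hochberg adjustment over 13795 genes, within the 10 total and the 10 polysome libraries. Loading was fitted in all 20 libraries as 4 groups. CPM are scaled with TMM factors over 20 libraries. The fits were also run on simulated counts with planted changes. Those counts were drawn without a mouse effect, so they do not bear on the pairing of libraries by mouse. The study fitted 8 mice, and all 10 were kept here. Total and polysome RNA of a mouse came from 1 liver, and their deviations from the group means correlated at 0.146 to 0.694 in the 10 mice, so the mouse served as a block in an alternative. Other alternatives were limma-voom 3.58.1, DESeq2 1.42.0, other scalings and filters, a minimum log2 change of 0.5, mitochondrially encoded genes left out, and mice left out in turn or mice 9 and 10 together. No 2 libraries were identical.

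The values of 1 member and of 1 gene of another list are not reported here, although both were in every fit and count. The members, gene lists and tests were chosen with earlier results of these data known. Members were named by the rule of the 3 highest and 3 lowest in each LNA comparison, the 4 highest and 4 lowest in loading with GFP LNA, the 2 smallest p of the interaction and 8 chosen by role. Others are given by group, and the pairs were chosen after their values were seen. A part of the rule, the 5 highest levels per kilobase, was not applied because transcript lengths were not used here. A count of 0 in a library allows up to 3 counts, and counting error is the only error that limit covers.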

Additional observations from a re-analysis of the deposited data

Results flagged for a closer look

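Of 84 groups of 5 mice checked (21 named members in 4 groups), 4 held a mouse whose gap to the nearest other mouse took more than 0.71 of the group's range. Chance alone gives such a gap in about 1 group in 20, and 4 of 84 is near that rate. Slc25a47 was 283.5 CPM in total RNA of GFP LNA mouse 9, where the others ran from 132.4 to 166.1. Slc25a47 was also 200.0 CPM in total RNA of SNORA73 LNA mouse 6, beside 118.2 to 135.0 in the others. Slc25a36 was 2.358 CPM in total RNA of GFP LNA mouse 9, beside 1.328 to 1.461. Slc25a28 was 7.489 CPM in total RNA of SNORA73 LNA mouse 10, beside 10.15 to 11.20. Mice 9 and 10 are those that correlated least with their own groups in total RNA.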

How the results depend on the processing

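Between the LNA groups and for the interaction, 0 members were called under every alternative run. The number called higher in loading moved. With GFP LNA it was 10, and 16 with the mouse as replicate block, 4 with no filter beyond 1 count, 4 with a minimum log2 change of 0.5, and 5 to 11 with 1 mouse left out, with 5 without mouse 2, 3 or 9 and 6 without mouse 8. With SNORA73 LNA it was 6, and 10 with the replicate block, 1 with a minimum log2 change of 0.5, and 4 to 6 with 1 mouse left out. The block moved no other count of members by more than 1.5 times. Of 1316 values of named members under alternatives, 1261 kept their side of the threshold and their direction, 29 lost and 9 gained the call, and 17 changed sign, none of them a called value. These were Slc25a1 in total RNA between LNA groups (−0.095 to 0.077 with 1 mouse left out and 0.023 without mice 9 and 10), Slc25a10 there (−0.22 to 0.10 and 0.041), and, with library totals, Slc25a13 in total (−0.046) and polysome RNA (−0.021). In SNORA73 LNA loading they were Slc25a22 (0.0071 with library totals, −0.10 to 0.018 with 1 mouse left out) and Slc25a5 (0.031, −0.024 to 0.022). For the interaction they were Slc25a13 (−0.12 to 0.11) and Slc25a25 (−0.089 to 0.066). Over all 39 members, 0 called values changed sign. Values not called changed sign in 45 of 770 cases in total and 37 of 765 in polysome RNA between LNA groups. They did so in 9 of 811 cases in GFP LNA loading, 13 of 811 in SNORA73 LNA loading and 44 of 772 for the interaction. The largest such main value was 0.39 in size, in polysome RNA. Loading calls were lost in 49 cases and gained in 16 with GFP LNA, and in 19 and 13 with SNORA73 LNA. The cause was not tested. Over all genes, calls between LNA groups in total RNA were 4 and ran from 1 to 46 higher and from 0 to 9 lower with 1 mouse left out, reaching 46 without mouse 9. They were 74 higher and 22 lower without mice 9 and 10, and 48 and 21 by DESeq2. In polysome RNA they were 2, with 227 higher and 52 lower by DESeq2, 242 and 75 with all 20 libraries in 1 fit, 66 and 6 with no filter beyond 1 count, 29 and 2 with CPM above 1 in every library, and 26 and 4 without mice 9 and 10. Levels per kilobase and their other length were not run, because transcript lengths were not used here. The median SE of a member was 0.15 in total and 0.18 in polysome RNA, which limits what could be seen between the LNA groups.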
